A study of Mus musculus with 9 samples.

Results

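Intronic circular RNAs were the circular RNAs (circRNAs) of the liver that the deposited circRNA table types as intron-derived rather than as exonic. They numbered 295 of the 4486 circRNAs in the table, and the other 4191 were exonic. Each entry is 1 back-splice junction, given by its start, its end, its strand and its host gene, with the number of junction-spanning reads in each library. The type in the table alone chose the members, and no count or group entered that choice.

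The study sequenced liver RNA of mice on an ethanol diet and of controls, in 3 groups of 3 libraries. PF libraries came from mice given the isocaloric liquid control diet, and AF libraries from mice on the Lieber-DeCarli ethanol diet. AF+MNA libraries came from mice on the Lieber-DeCarli diet that also received daily intraperitoneal MNA at 50 mg/kg, a compound that the labels do not spell out. The strain labels read C57BL/6 for PF and AF and C57BL/7, C57BL/8 and C57BL/9 for AF+MNA. All mice are labelled as 8 weeks of age and were fed for 5 weeks, and the study's methods call its mice male C57BL/6J. Total RNA was depleted of ribosomal RNA and made into strand-specific paired-end libraries, 1 per replicate. Nothing in the labels says that replicates are separate animals, so p-values measure the spread between these libraries.

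Most excised introns leave the spliceosome as a lariat, a loop closed by an unusual bond between the first base of the intron and an internal adenosine, the branch point. The debranching enzyme Dbr1 opens the loop and the intron is degraded. A circular intronic RNA is a lariat loop that has escaped debranching and lost the tail after the branch point, so that its 5′ end lies at the splice donor and its 3′ end near the branch point, a short distance before the splice acceptor. Other intron circles join the donor to the very end of the intron. Hepatocytes transcribe genes of secreted proteins and of metabolism at high rates.

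The tissue label was checked against marker lists. All 7 hepatocyte markers were above 0.5 FPKM, with a summed level between 15965 and 23846 FPKM in the 9 libraries. Lymphocyte markers summed to at most 1.9 FPKM, and 1 of 5 was above 0.5 FPKM. Markers of sinusoidal endothelium summed to between 25.6 and 28.6 FPKM in PF and between 29.2 and 40.2 FPKM in AF, and those of cholangiocytes to between 3.27 and 4.31 FPKM in PF and between 4.86 and 9.12 FPKM in AF. Both sums were higher in AF without overlap, with 5 of 5 endothelial but only 2 of 5 cholangiocyte markers above 0.5 FPKM. The part of these sums in the results below was not tested. Total reads per library, recovered from the ratio of the deposited counts to their scaled values, ranged from 57800660 to 82179248.

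The sequences of the junction ends were read for the members whose whole length is covered by an exon of another annotated transcript, mostly a retained-intron transcript. These were 22 of the 295 members, from 21 host genes. The member with most reads, ciRNA38 of Hykk, lies at chr9:54917859-54918246 of GRCm38 on the plus strand, at the donor of intron 1 of the isoform ENSMUST00000039742. That donor has 2 annotated acceptors, and the circle ends at the nearer one, while the intron of this isoform is 2615 bases long. Hykk encodes hydroxylysine kinase, which acts in the breakdown of hydroxylysine. Its circle is 388 bases long, and its start and end, shown because this is the member found in all 9 libraries, read as follows with the first and last pair of bases of the circle in capitals.
Hykk ciRNA38, first 150 bases: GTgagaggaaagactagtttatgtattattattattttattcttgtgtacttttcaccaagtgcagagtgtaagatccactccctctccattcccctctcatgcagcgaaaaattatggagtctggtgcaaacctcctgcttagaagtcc
Hykk ciRNA38, last 150 bases: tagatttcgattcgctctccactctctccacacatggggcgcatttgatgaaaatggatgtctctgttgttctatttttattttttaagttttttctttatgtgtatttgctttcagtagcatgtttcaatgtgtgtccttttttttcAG
The start is a canonical GT donor, and the end is the AG of a splice acceptor preceded by a run of pyrimidines. Pyrimidines made up 75% of the last 20 bases, and G and C made up 35.8% of the whole circle. The other Hykk member, ciRNA100, has the same start and ends 1 base earlier, inside that AG.

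The last 40 bases of both Hykk members and of the next 5 members by reads among those with a sequence are shown to compare where the circles close, with their last pair of bases in capitals.
Hykk ciRNA38: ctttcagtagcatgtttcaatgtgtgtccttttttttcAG
Hykk ciRNA100: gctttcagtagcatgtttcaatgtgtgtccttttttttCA
Rpl9 ciRNA116: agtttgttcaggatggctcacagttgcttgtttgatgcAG
Clk4 ciRNA220: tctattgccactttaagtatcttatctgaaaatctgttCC
Clk1 ciRNA190: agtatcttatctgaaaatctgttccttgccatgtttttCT
Luc7l2 ciRNA203: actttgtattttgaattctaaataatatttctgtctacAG
Zfp68 ciRNA279: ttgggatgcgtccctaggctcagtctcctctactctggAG
Hykk ciRNA38, Rpl9 ciRNA116 and Zfp68 ciRNA279 end at the nearest annotated acceptor of their donor and close on AG. Their donors have 2, 2 and 4 annotated acceptors, and the introns of the host isoforms in the table are longer, at 2615, 1708 and 4889 bases. Of the 22 members with a sequence, 5 ended on the last base before the nearest acceptor, and all 5 closed on AG. Among 15482 annotated introns covered by exons in the same way, 98.9% ended in AG. The 5 ends are themselves annotated intron ends, so their AG mostly restates the annotation. Luc7l2 ciRNA203 also closes on AG, although the nearest annotated acceptor for its donor is 11547 bases further on. A further 5 members with a sequence ended 10 to 60 bases before the acceptor, where branch points usually lie, and 0 of these 5 had an A as the last base.

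The starts of these members were compared in the same way. A GT began 21 of the 22 sequences, against 96.9% of the 15482 introns. The exception was the Bgn member ciRNA1 on chromosome X, which began with AT. GTGAG or GTAAG began 12 of the 22, against 45.8% of the introns. Both Hykk members share a start, so the 22 hold 21 distinct starts. All of them lie on annotated donors, so a GT start mostly restates the annotation. The first 24 bases are shown for 2 members, with the first pair of bases in capitals.
Clk4 ciRNA220: GTatgagtggtttgtttttatttg
Bgn ciRNA1: ATaaatctttcttcttgctcatcc
Clk1 and Clk4 encode paralogous kinases that phosphorylate splicing factors of the SR family. Their members held an identical run of 25 bases next to the end, agtatcttatctgaaaatctgttcc, which closes the Clk4 circle and stops 15 bases before the end of the Clk1 circle. Over 617 aligned columns the 2 circles were 67.6% identical. Clk1 ciRNA190 had 3 reads, in AF replicate 3, and Clk4 ciRNA220 had 4 reads, in AF+MNA replicate 2. Reads of such paralogs can be split by a caller, and whether that touched these 2 counts was not tested.

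All 295 members started exactly on an annotated splice donor of GENCODE M21. They came from 258 distinct donors of 240 host genes, and 7 members lay in lncRNA hosts. Their lengths ran from 153 to 63913 bases, with a median of 850 and quartiles of 528 and 1690. The ends varied more than the starts. Ends were measured to the nearest annotated acceptor joined to the same donor, called the intron end here. On the last base of that intron ended 102 members, 34.6% of all, and another 50 ended 1 to 5 bases before it. For 26 of the 102 the donor had several annotated acceptors, and 89 of the 102 circles were as long as the intron of their host isoform in the table. The window of 10 to 60 bases before the acceptor held 45 members, and 27 of these ended 18 to 40 bases before it. At least 1000 bases before the nearest acceptor ended 58 members, of which 24 belonged to Alb. The Smarca2 and Grb7 members, 2 in all, ended beyond the acceptor. By reads, circles that closed within 5 bases of the intron end held 342 of 654 junction reads, and those that closed 10 to 60 bases before it held 81. Only 1 member overlapped an annotated small RNA gene, the Trpc4ap member ciRNA158 with the snoRNA gene Gm22334. The plot of end positions shows these classes.

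**Figure D1:**
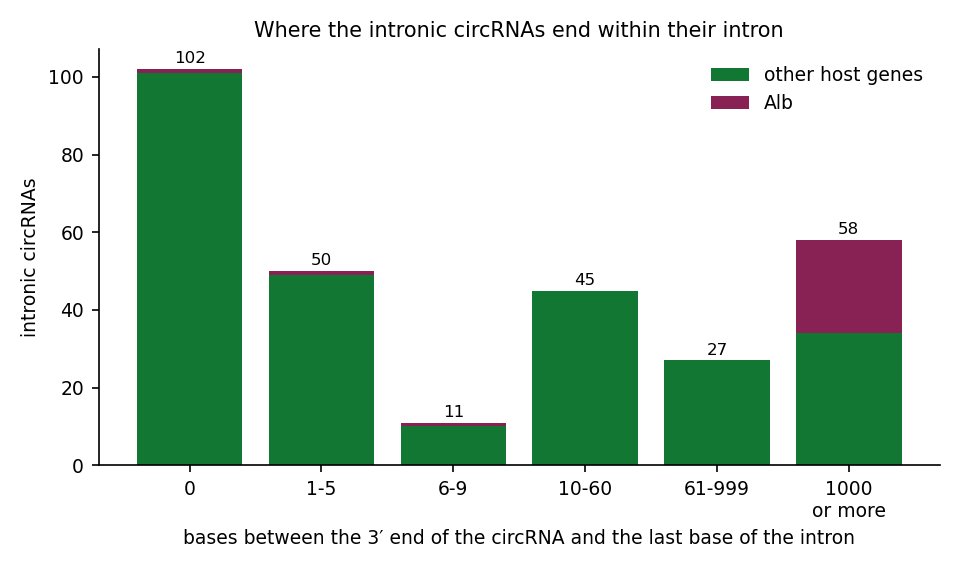
Number of intronic circRNAs (y axis) by the distance in bases between their 3′ end and the last base of the nearest annotated intron with the same donor (x axis), with Alb members in purple and all other hosts in green. The classes at 0 and at 1 to 5 bases hold 102 and 50 members, and 24 of the 58 members in the class of 1000 bases or more are from Alb; 2 members that end beyond the acceptor are left out.

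The plus strand carried 203 of the 295 members, 68.8%, and 2190 of the 4191 exonic circRNAs, 52.3%. In the single libraries the plus-strand share of detected intronic junctions was between 64.7% and 81.5%, and that of exonic junctions between 49.7% and 53.6%. The intronic share was higher in 9 of 9 libraries, by a mean of 18.9 percentage points (two-sided exact permutation test that swaps the 2 types within libraries, p = 0.00391, the smallest p of this test; 0.00469 after Benjamini-Hochberg adjustment over 6 such measures). Without Alb, whose gene is on the plus strand, the difference was 16.0 points and it was again higher in 9 of 9 libraries (exact permutation p = 0.00391). Counted by distinct donors, 169 of 258 were on the plus strand. Within 5 bases of the intron end closed 53.2% of plus-strand members and 47.8% of minus-strand members, and 10 to 60 bases before the acceptor closed 11.8% and 22.8%.

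Few intronic circRNAs were found more than once. Of the 295 members, 280 had reads in 1 library only, 11 in 2 libraries, 2 in 3, 1 in 5 and 1 in all 9. Among the junctions detected in a library, those found in no other library made up 86.8% ± 3.65 of the intronic (SD, n = 9 libraries) and 46.2% ± 2.82 of the exonic ones. The share was higher for intronic junctions in 9 of 9 libraries (exact permutation test, two-sided, p = 0.00391, adjusted p = 0.00469). Each library's share also depends on the reads of the other libraries, so the 9 values are not independent and this p is only a guide. Intronic junctions also had fewer reads each, 2.09 ± 0.42 per detected junction against 2.64 ± 0.61 for exonic ones, lower in 9 of 9 libraries (exact permutation p = 0.00391).

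The 2 types were also set side by side by their reads summed over the 9 libraries. At 2 reads, 68 of 70 members were in 1 library, 97.1%, against 844 of 971 exonic circRNAs, 86.9%. At 3 reads these were 30 of 35 and 309 of 462, or 85.7% and 66.9%, and at 4 reads 16 of 18 and 139 of 280, or 88.9% and 49.6%. The other classes span several read numbers, and reads were not matched inside them. With 5 to 9 reads, 14 of 18 members were in 1 library, 77.8%, against 119 of 470 exonic circRNAs, 25.3%. With 10 or more reads, 2 of 4 members were in 1 library, against 0 of 302 exonic circRNAs. These shares describe junctions that come from the same 9 libraries, and no test was made across junctions. The reads carry no molecular identifiers, so several reads of 1 junction in 1 library need not be separate molecules.

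**Figure D2:**
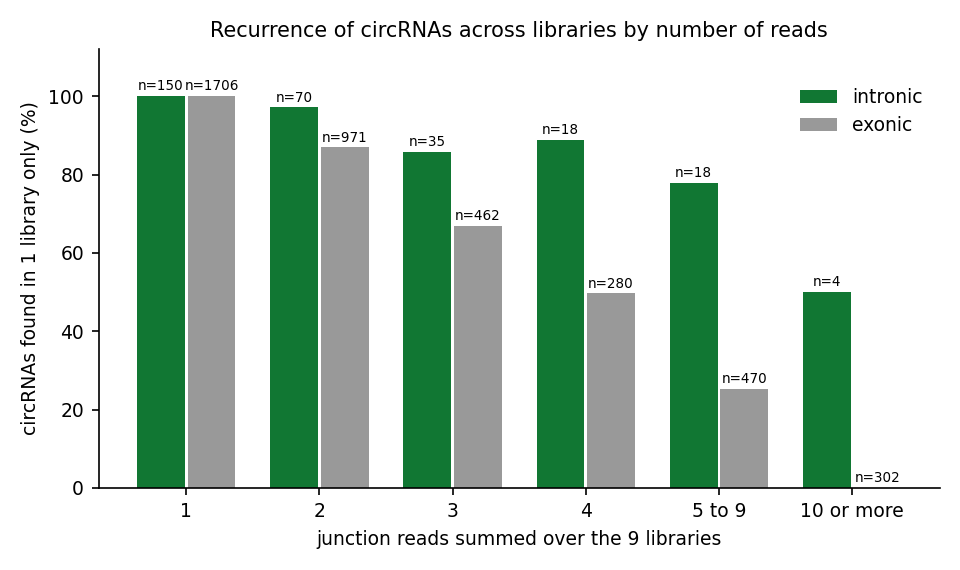
Percentage of circRNAs found in 1 library only (y axis) by their junction reads summed over the 9 libraries (x axis), for intronic (green) and exonic (grey) circRNAs, with the number of circRNAs above each bar. At 5 to 9 reads the bars stand at 77.8% and 25.3%, and at 10 or more reads at 50.0% and 0%.

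The 12 members with most reads show both patterns. Ties at 6 reads were cut in order of name. This left out Cyp2e1 ciRNA59, Zdhhc16 ciRNA20 and Gm26669 ciRNA196, found in 3, 2 and 1 libraries. Hykk ciRNA38 had 48 reads, of which the PF libraries held 4, 10 and 6, the AF libraries 3, 2 and 6, and the AF+MNA libraries 4, 7 and 6. Hykk ciRNA100 had 11 reads, with 3 in PF replicate 3, 2, 1 and 1 in AF and 4 in AF+MNA replicate 1. Together the Hykk pair made up 9.02% of all intronic junction reads, and it was the only donor with reads in all 9 libraries.

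Ep300 encodes a histone acetyltransferase, and its member ciRNA171, which closes 2 bases before the intron end, had 10 reads, all in AF replicate 3. Dock9, whose protein activates the GTPase Cdc42, had 8 reads of ciRNA174 in that same library and 0 in the other 8 libraries. AF replicate 3 also held the 6 reads of ciRNA169 of Gaa, the lysosomal acid alpha-glucosidase. The 7 reads of ciRNA43 of Hnrnpk, an RNA-binding protein, were all in PF replicate 2. Gigyf2, a factor of translational repression, had 6 reads of ciRNA129, all in AF replicate 1. A member with 0 reads in a library could still have been present there at up to 3 reads, which is 36.5 to 51.9 reads per 1000000000 total reads (RPB) depending on the library, for counting error only.

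**Figure D3:**
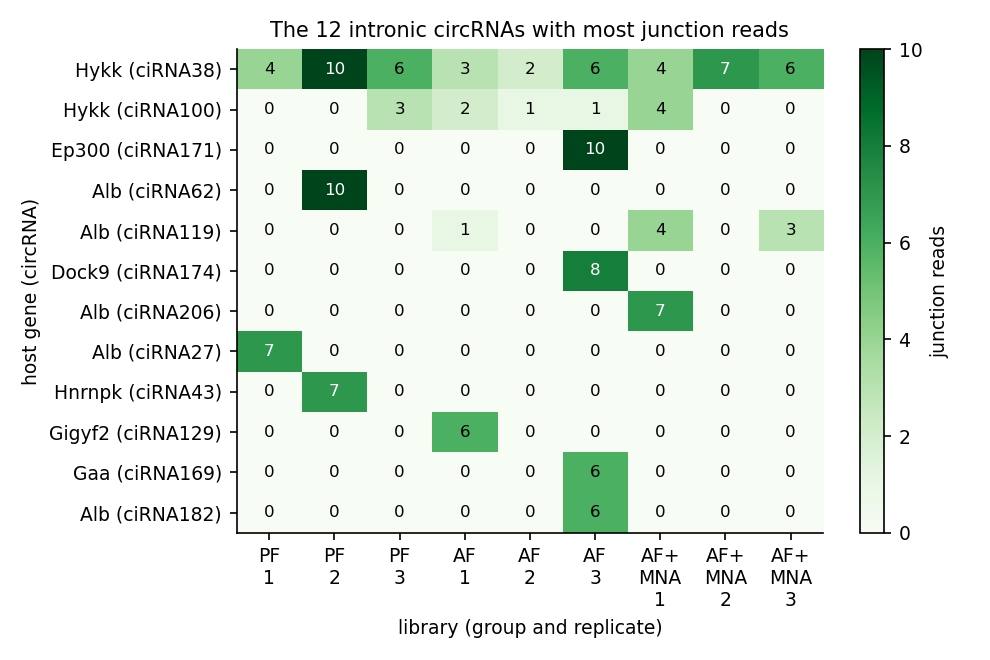
Junction reads (number and shade) of the 12 intronic circRNAs with most reads (rows, by host gene, ties in order of name) in each of the 9 libraries (columns, by group and replicate). Hykk ciRNA38 has between 2 and 10 reads in every library, while Ep300 ciRNA171 and Alb ciRNA62 have 10 reads in 1 library each and 0 elsewhere.

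The levels of these 5 hosts were compared across the same libraries. Ep300 was at 5.01, 4.93 and 4.77 FPKM in PF, at 4.93, 4.90 and 4.85 FPKM in AF and at 5.41, 4.87 and 5.26 FPKM in AF+MNA, so AF replicate 3 lay inside the range of the other libraries. Dock9 lay between 1.19 and 2.24 FPKM in all 9 libraries, with 1.95 FPKM in AF replicate 3, and Gigyf2 between 1.47 and 2.46 FPKM, with 2.04 FPKM in AF replicate 1. The other two were highest in the library that held their reads. Gaa was at 19.2 FPKM in AF replicate 3 and between 12.1 and 17.4 FPKM elsewhere. Hnrnpk was at 18.3 FPKM in PF replicate 2 and between 14.7 and 17.4 FPKM elsewhere. The isoform that hosts the Hykk circles belongs to a merged gene entry named Psma4, a neighbouring proteasome gene, so the level of Hykk alone is not given.

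Some donors recurred with small shifts in their end. Besides Hykk and Alb, 11 donors had several members, and 10 of these 11 had reads in more than 1 library. Cyp2e1 encodes the P450 enzyme that oxidises ethanol, and its last intron gave ciRNA59, which fills the whole intron of 786 bases, and ciRNA60, which is 1 base shorter. The PF libraries had 0, 5 and 1 reads of the pair, each AF library had 0, and the AF+MNA libraries had 0, 3 and 1. The AF libraries were thus at 0 and PF replicate 1 and AF+MNA replicate 1 were as well, so the groups overlapped. Cyp2e1 itself was at 3122, 3754 and 3104 FPKM in PF and at 2951, 2620 and 3067 FPKM in AF. Zdhhc16, a protein palmitoyltransferase, gave 3 members of 637, 638 and 641 bases from 1 donor, with 4 reads in each of PF replicate 1 and AF replicate 1 and 2 reads in AF+MNA replicate 2. The Hnrnpk donor of ciRNA43 also gave ciRNA3, which is 2 bases longer and had 4 reads in PF replicate 1. The Errfi1 donor, with circles of 874 and 875 bases, and the Pbrm1 donor, with circles of 759 and 760 bases, each had reads in 3 libraries. Counted by donor, 238 of 258 donors, 92.2%, had reads in 1 library only.

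Alb, which encodes serum albumin, was the host with most members, 27 of 295, and with 12.5% of all intronic junction reads. For 24 of them the type in the table goes against the full-length gene. They share a start at position 90464087 of chromosome 5 (GRCm38, plus strand), which is an annotated donor only in a short isoform, ENSMUST00000201356, whose intron from there is 10480 bases long. In the full-length transcript ENSMUST00000031314, with 15 exons, that position lies inside exon 4. The circles ran from 888 to 8592 bases, and 22 of the 24 ended inside an exon of the full-length transcript, although its exons make up 12.2% of the interval. They held 75 of the 77 reads. Ends lay in 7 exons, with 6 members ending in exon 8, 4 each in exons 9, 11 and 12, 2 in exon 7 and 1 each in exons 5 and 6, and 0 in exon 10. The ends stood 6 to 127 bases before the end of their exon. Among the 268 members of other hosts, 16 ended inside an exon of a protein-coding transcript and 7 held a whole such exon, 22 with one or both. Apoe ciRNA235, with 1 read, held 3 whole exons.

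**Figure D4:**
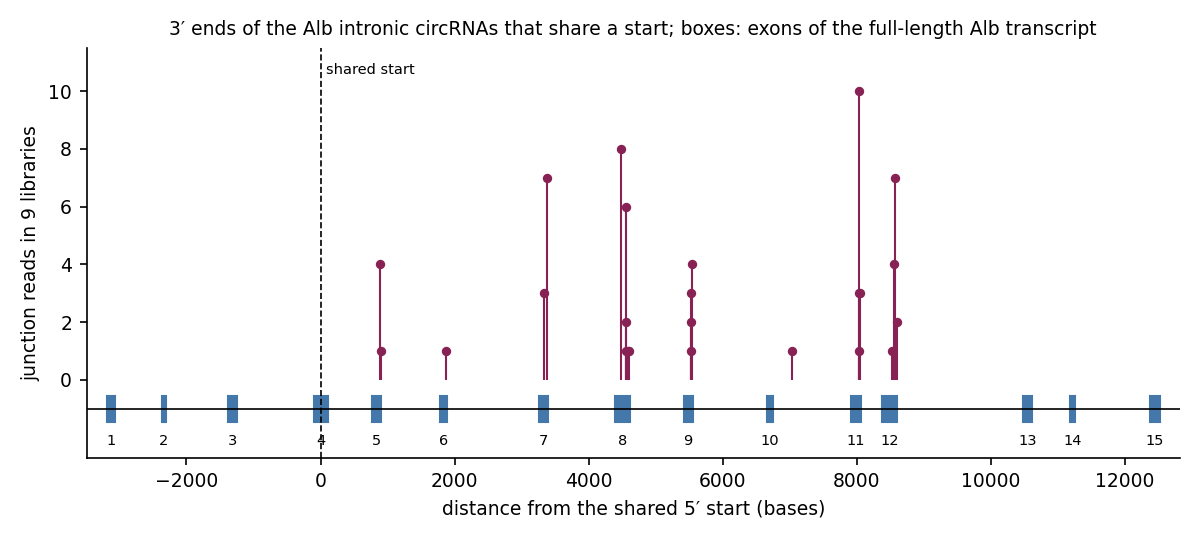
Junction reads summed over the 9 libraries (y axis) of the 24 Alb members that share a start, placed at their 3′ end by the distance in bases from that start (x axis), above the numbered exons of the full-length Alb transcript (blue boxes). The ends gather over exons 5 to 9, 11 and 12, and 22 of the 24 fall inside an exon.

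Of these 24 circles, 23 were found in 1 library each, although the donor itself had reads in 8 of 9 libraries. Alb ciRNA62, which closes in exon 11, had 10 reads, all in PF replicate 2. Alb ciRNA27, in exon 7, had 7 reads in PF replicate 1, ciRNA206, in exon 12, had 7 in AF+MNA replicate 1, and ciRNA182, in exon 8, had 6 in AF replicate 3. Alb ciRNA119, also in exon 8, was the member in more than 1 library, with 1 read in AF replicate 1, 4 in AF+MNA replicate 1 and 3 in AF+MNA replicate 3. The other 3 Alb members lay in annotated introns of the full-length gene. Alb ciRNA90 filled intron 14 and had 3 reads in PF replicate 3, and ciRNA28 and ciRNA63, in intron 8, had 1 read each. Exonic circRNAs of Alb were also rare, 9 in all, with at most 4 reads.

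Summed over the shared donor, the PF libraries had 7, 10 and 0 Alb reads, the AF libraries 11, 1 and 7, and the AF+MNA libraries 15, 4 and 22. In RPB, PF stood at 105, 149 and 0, AF at 176, 16.7 and 94.0, and AF+MNA at 183, 52.2 and 381. The lowest libraries were PF replicate 3 and AF replicate 2, and the groups overlapped in both comparisons. The level of Alb itself lay between 10882 and 17386 FPKM, with the lowest value in AF replicate 2. The mean of the donor sum was 2.15 times higher in AF+MNA than in AF, and this difference was within the spread between libraries (exact permutation test, two-sided, p = 0.4). The ratio was 1.23 without AF+MNA replicate 3 and 3.71 without AF replicate 1. The ratio of AF to PF was 1.13, and it ran from 0.65 without AF replicate 1 (0.75 without PF replicate 3) to 1.81 without PF replicate 2.

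Hosts of secreted plasma proteins made up a larger share of intronic than of exonic junctions. In all, 44 members came from 14 genes of a list of plasma proteins made by hepatocytes. These were Alb, Apoa5, Apob, Apoe, Cp, F5, Hc, Masp2, Mug1, Orm1, Plg, Pros1, Pzp and Serpina3k. Alb alone gave 27 of the 44, and the list was chosen with earlier results of these data known. Per library they were 13.8% ± 4.84 of detected intronic junctions and 1.80% ± 0.57 of exonic ones (SD, n = 9 libraries), higher in 9 of 9 libraries (exact permutation test, two-sided, p = 0.00391, adjusted p = 0.00469). Without Alb the shares were 5.17% ± 4.16 and 1.66% ± 0.54, with the intronic share higher in 7 libraries and lower in 2 (exact permutation p = 0.0313, adjusted p = 0.0313), since AF+MNA replicates 1 and 3 had 0%.

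Cps1, which catalyses the entry of ammonia into the urea cycle, was the other host with at least 4 members. Its 4 circles came from 4 introns, numbers 16, 18, 22 and 23 of 37, and each closed within 1 base of the intron end. Cps1 ciRNA99 had 2 reads in PF replicate 3, ciRNA210 had 2 in AF+MNA replicate 1, ciRNA36 had 1 in PF replicate 1 and ciRNA287 had 1 in AF+MNA replicate 3. These 4 had no read in AF, as did 196 of the 295 members, 66.4%. Cps1 itself was at 729, 1037 and 946 FPKM in PF and at 1510, 1132 and 1131 FPKM in AF, higher in AF without overlap but not past the test (limma adjusted p = 0.468).

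Host genes of the members were well expressed. The 287 members whose isoform was found in the gene table belonged to 232 gene entries, with a median level of 5.82 FPKM (quartiles 2.90 and 15.1) over the 9 libraries. The 12257 entries at 0.5 FPKM or more had a median of 2.69 FPKM, and the 2148 entries that host exonic circRNAs one of 3.78 FPKM. At least 100 FPKM was reached by 18 of the 232 intronic host entries, 7.76%, and by 3.35% of the exonic host entries. Among entries at 0.5 FPKM or more it was reached by 7.93% of intronic hosts and by 1.88% of all. Exonic circRNAs were also listed for 99 of the 240 intronic host genes, a count for which the share over all genes was not computed. These are descriptions of 9 shared libraries, with no test across genes.

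The first comparison asked whether intronic circRNAs differed between alcohol-fed and pair-fed livers. Summed over all members, the PF libraries had 71, 83 and 53 junction reads and the AF libraries 68, 67 and 92. PF stood at 1068, 1239 and 865 RPB, a mean of 1057 ± 187 (SD, n = 3). AF stood at 1088, 1120 and 1235 RPB, a mean of 1148 ± 77.1 (SD, n = 3). The AF libraries all lay inside the PF range. The difference of 90.2 RPB was within the spread between libraries (exact permutation test, two-sided, p = 0.5, and 0.933 adjusted over 14 such tests). Without PF replicate 3 it was -6.11, and without PF replicate 2 it was 181. Over the 4 members found in 3 or more libraries alone it was -54.1 RPB, a value with no test here, since Cyp2e1 ciRNA59 met that number through PF and AF+MNA libraries only. The Hykk pair alone differed by -44.1 RPB. This test cannot give a p below 0.1 with 3 libraries a group. Exonic junction reads summed to 28343 ± 2108 RPB in PF and to 28666 ± 2006 RPB in AF (SD, n = 3).

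As a share of all circRNA junction reads, intronic circRNAs made up 3.63%, 4.51% and 2.76% of the PF libraries, and 3.47%, 3.68% and 4.47% of the AF libraries. The 95% Wilson intervals ran from 2.12% to 3.59% in the lowest PF library and from 3.66% to 5.45% in the highest AF library, for counting error only. The mean shares were 3.63% ± 0.87 in PF and 3.87% ± 0.52 in AF, and the groups overlapped (exact permutation test, two-sided, p = 0.8). Without PF replicate 3 the difference in share, 0.24 percentage points, was -0.20, and without AF replicate 3 it was -0.06. Without PF replicate 2 it was 0.68. The PF libraries detected 42, 34 and 27 members, and the AF libraries 37, 34 and 35.

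The second comparison set AF+MNA against the same AF libraries, so that both comparisons share them. The AF+MNA libraries had 64, 83 and 73 intronic junction reads, or 779, 1082 and 1263 RPB, a mean of 1041 ± 245 (SD, n = 3). AF+MNA replicate 1 was the lowest and AF+MNA replicate 3 the highest of all 9 libraries, with the AF libraries between them. The difference from AF was -106 RPB (exact permutation test, two-sided, p = 0.6). Without AF+MNA replicate 1 it was 24.9, without AF+MNA replicate 3 it was -217, and without Alb -216. Over the 4 members found in 3 or more libraries alone it was 64.0 RPB. This value is also given with no test, since Cyp2e1 ciRNA59 had 0 reads in AF, and Alb ciRNA119 met the number of libraries with 1 in AF and 2 in AF+MNA. The Hykk pair alone differed by 22.8 RPB. The share of junction reads was 2.51%, 3.65% and 4.60%, a mean of 3.59% ± 1.04, against 3.87% ± 0.52 in AF (exact permutation p = 0.8). That difference of -0.28 percentage points was 0.25 without AF+MNA replicate 1, 0.01 without AF replicate 3 and -0.79 without AF+MNA replicate 3.

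**Figure D5:**
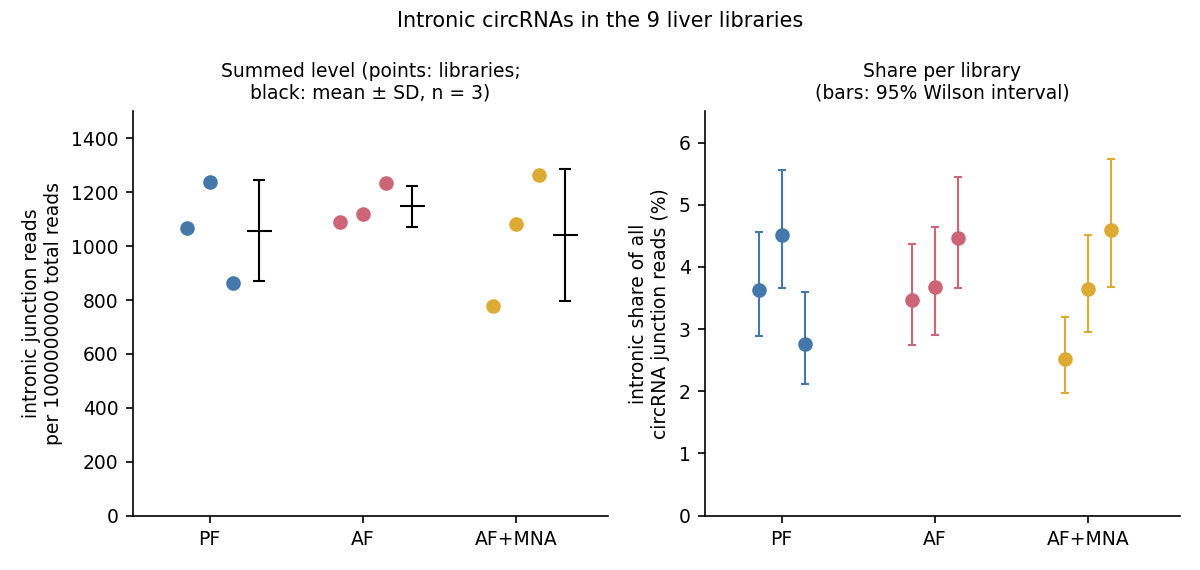
Left, summed junction reads of intronic circRNAs per 1000000000 total reads (RPB, y axis) in each library of the PF, AF and AF+MNA groups, with the mean and SD of 3 libraries in black. Right, intronic circRNAs as a percentage of all circRNA junction reads (y axis), with 95% Wilson intervals per library. The AF libraries (1088 to 1235 RPB) lie inside the range of PF and of AF+MNA.

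The signal of assembled transcripts inside introns stood apart in 2 libraries. The summed level of 13645 such lncRNA transcripts was 9433 FPKM in AF replicate 3 and 8934 FPKM in AF+MNA replicate 1, and between 2477 and 4937 FPKM in the other 7 libraries. Of the intronic circRNA levels in these 2 libraries, that of AF replicate 3, 1235 RPB, was high and that of AF+MNA replicate 1, 779 RPB, the lowest. Only 2 of the 295 members overlapped one of those transcripts. The part of this signal in the results above was not tested.

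Of the 295 members, 100 had a read in PF, 99 in AF and 110 in AF+MNA. Reads in PF only were found for 91, in AF only for 92 and in AF+MNA only for 100, while 10 members had reads in 2 groups and the 2 Hykk members in all 3. As 280 members had reads in a single library, presence in 1 group alone mostly rested on 1 library.

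Single circRNAs were tested with edgeR's quasi-likelihood test when they had reads in at least 3 of the 6 libraries compared. In AF against PF, 2 of 295 members entered this test, both of Hykk, among 335 circRNAs, and in AF+MNA against AF 3 members among 320. With Benjamini-Hochberg adjusted p under 0.05 from edgeR, 0 members were called in either comparison, and 0% of all circRNAs tested. At an unadjusted p under 0.05 from edgeR with a log2 fold change beyond 1, 0 members and 20 circRNAs passed in the first comparison (5.97% of those tested), and 0 members and 14 circRNAs in the second (4.38%). The same counts passed on the unadjusted p alone. DESeq2 called 0 members in both. Hykk ciRNA38 had a log2 fold change of -0.89 (SE 1.11, edgeR adjusted p = 0.942) in AF against PF and of 0.55 (SE 1.31, edgeR adjusted p = 0.978) in AF+MNA against AF. With a library left out these ran from -1.29 (without AF replicate 3) to -0.52 (without PF replicate 2) in the first comparison. In the second, the lowest value was 0.31 when AF replicate 2 was left out and the highest 0.95 when AF replicate 3 was. Its reads in PF (4 to 10) and in AF (2 to 6) overlapped. Alb ciRNA119 had a log2 fold change of 2.32 (SE 1.76, edgeR adjusted p = 0.978) in AF+MNA against AF. The remaining members, 293 in the first comparison and 292 in the second, had reads in too few libraries for a test.

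Reads were also summed over members with the same donor. The PF libraries had 4, 10 and 9 summed Hykk reads, the AF libraries 5, 3 and 7, and the AF+MNA libraries 8, 7 and 6. AF replicate 2 was the lowest library and PF replicate 2 the highest, and the groups overlapped. The log2 fold change of the Hykk donor was -0.65 (SE 0.99) in AF against PF and 0.37 (SE 1.19) in AF+MNA against AF, with edgeR adjusted p-values of 0.940 and 0.977. The Alb donor had log2 fold changes of 0.16 (SE 1.02) and 1.07 (SE 0.89), with edgeR adjusted p-values of 0.996 and 0.977. The intervals of 1.96 SE around these log2 fold changes were wide, from -2.59 to 1.29 and from -1.96 to 2.70 for the Hykk donor, and from -1.84 to 2.17 and from -0.67 to 2.81 for the Alb donor. The Pbrm1 donor, also tested in AF against PF, had a log2 fold change of -0.75 (SE 1.62, edgeR adjusted p = 0.940).

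Host genes were tested on the log2(FPKM + 1) scale with limma. Of 227 host entries tested in AF against PF, 1 passed an adjusted p under 0.05, 0.441%, against 0.326% of all 12273 gene entries, and 0.147% of all entries were called lower. The share of hosts was near that background. The host was Elovl3, an elongase of very long chain fatty acids. Its level was 51.7, 42.5 and 28.0 FPKM in PF, 2.33, 3.99 and 2.46 FPKM in AF and 2.93, 14.8 and 16.8 FPKM in AF+MNA. All AF libraries were under all PF libraries, with a log2 fold change of -3.39 (SE 0.27, limma adjusted p = 0.0073). Its member ciRNA54, the shortest of all at 153 bases, had 2 reads, both in PF replicate 2. The median log2 fold change of the host entries was -0.03, as was that of all gene entries, and 32 host entries and 1432 of all entries had an unadjusted p under 0.05 in limma.

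A second threshold was an unadjusted p under 0.05 in limma with a log2 ratio of means beyond 1. The study states these limits for lncRNAs analysed with Ballgown, so feature and test differ here. In AF against PF 9 host entries passed, 4 higher and 5 lower. This was 3.96% of hosts against 4.29% of all entries (1.95% higher and 2.35% lower). Slc7a2, a transporter of cationic amino acids, was at 20.7, 19.6 and 17.1 FPKM in PF and at 40.7, 66.8 and 24.1 FPKM in AF, without overlap (limma adjusted p = 0.345). Its 2 members had 2 reads in each of AF replicates 1 and 2 and none in other libraries. Tat, tyrosine aminotransferase, was at 115, 241 and 137 FPKM in PF and at 387, 581 and 197 FPKM in AF, where AF replicate 3 fell inside the PF range (limma adjusted p = 0.393), and its member ciRNA163 had 2 reads in AF replicate 2. Reads did not always lie in the group with the higher host. Trim2 had a mean of 0.70 FPKM in PF and of 1.45 FPKM in AF, and the 3 reads of its member ciRNA94 were all in PF replicate 3. Mup7, a major urinary protein gene with near-identical copies whose reads cannot be told apart with certainty, had a mean of 5560 FPKM in PF and of 2044 FPKM in AF, and the read of its member was in AF replicate 2. Members of the hosts Htatip2 and Zfp445 had reads only in AF+MNA, and all 6 reads of the 2 Ttc39c members were in PF. The isoform that hosts these 2 belongs to a merged gene entry named Cabyr, with a mean of 26.2 FPKM in PF and 6.01 FPKM in AF, so the level of Ttc39c alone is not given. In AF+MNA against AF, 0 of 226 host entries passed an adjusted p under 0.05 in limma, against 0.0491% of 12219 entries, and 10 had an unadjusted p under 0.05. By the second threshold 2 hosts passed, both higher, 0.885% against 1.98% of all entries (1.03% higher). These were Hsph1, a chaperone, and Elovl3.

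The genes that handle lariats were read from the same fits. Dbr1, the debranching enzyme, was at 2.01, 2.97 and 3.10 FPKM in PF, at 2.05, 1.33 and 1.86 FPKM in AF and at 2.08, 2.30 and 2.98 FPKM in AF+MNA. PF replicate 1 lay under the highest AF library, so PF and AF overlapped, while all AF+MNA libraries lay above all AF libraries. The log2 fold change was -0.42 (SE 0.18, limma adjusted p = 0.426) in AF against PF and 0.33 (SE 0.16, limma adjusted p = 0.940) in AF+MNA against AF. At an adjusted p under 0.05 in limma, 0 of 11 genes of the lariat debranching and intron turnover list passed in AF against PF and 0 of 10 in AF+MNA against AF. Of the genes for branch point and 3′ splice site recognition, 0 of 15 passed in each comparison. Back-splicing regulators gave 0 of 10 and nuclear exosome genes 0 of 13 in each, and Exosc3, a core subunit of the exosome, is itself a host with 2 members. By the unadjusted threshold used for the hosts, 1 of the 13 exosome genes passed in AF against PF, Exosc4, and 0 of 11, 0 of 15 and 0 of 10 of the other lists, against 4.29% of all entries. Named after its values were seen, it was at 1.81, 1.48 and 0.71 FPKM in PF and at 5.68, 4.43 and 1.67 FPKM in AF (limma adjusted p = 0.381).

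Among the lists that hold more of the hosts, 0 of 84 plasma protein genes passed an adjusted p under 0.05 in limma in either comparison. By the unadjusted threshold 6 of 84 passed in AF against PF, 7.14% against 4.29% of all entries, 1 higher (Apoa4) and 5 lower (Serpina1e, C6, C4a, C9 and F11), and 0 of 84 in AF+MNA against AF. None of these 6 genes is a host of a member. Of 55 cytochrome P450 genes, 9 were higher and 2 lower in AF than in PF at an adjusted p under 0.05 in limma (0.179% and 0.147% of all gene entries), and 0 of 56 passed in AF+MNA against AF. Cyp2b10, a P450 enzyme induced by xenobiotics, was at 0.28, 0.22 and 3.33 FPKM in PF and at 260, 195 and 133 FPKM in AF (limma adjusted p = 0.0073). Cyp2u1, a fatty acid hydroxylase, was at 13.29, 11.02 and 10 FPKM in PF and at 2.59, 1.18 and 2.53 FPKM in AF (limma adjusted p = 0.0283). Neither hosts an intronic circRNA. The hosts of this list were Cyp2e1 and Cyp51, with 3 members and 13 reads, and Cyp2e1 did not pass, with a log2 fold change of -0.21 (SE 0.19, limma adjusted p = 0.721).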

How the data were processed

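The authors deposited back-splice junction count values per circRNA and library, each with a scaled signal, and gene and lncRNA levels in FPKM. The junction counts are not normalized, and the signal is the count divided by the library's total reads and by a read length, which the sources used here do not give. It was taken as 150, inferred from counts and signals, and another length would scale all total reads and RPB values alike. The authors made FPKM with StringTie 1.3.4 from merged transcripts, so neighbouring genes can share an entry. Per the labels, cutadapt 1.9, HISAT2, TopHat and edgeR are also named, without their roles. The circRNA caller, its minimum of reads and the genome build are not given in the sources used here. Junction ends were placed on GENCODE M21 (GRCm38), where all 295 starts met a donor. No genome sequence was used, so sequences were read only where an annotated transcript covers the circle.

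The precision of a junction is set by its few reads, between 53 and 92 intronic reads in a library. Total reads were recovered from counts and signal and used as library sizes. Junction counts were tested with edgeR 4.0.16 (glmQLFit, glmQLFTest) over all circRNAs with reads in at least 3 of 6 libraries, with DESeq2 1.42.0 as an alternative. The SE of an edgeR fold change was taken from its F statistic. Gene entries with a mean of at least 0.5 FPKM were tested with limma 3.58.1 (trend) on log2(FPKM + 1), which understates changes of low genes, and p-values were adjusted after Benjamini and Hochberg over all features tested. Sums and shares were tested with exact permutation tests over libraries. The scripts were tested on simulated data. Scripts ran under Python 3.11.15 (scipy 1.17.1, pandas 2.3.3, matplotlib 3.10.9) and R 4.3.3.

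Groups came from the sample titles. AF was compared with PF, and AF+MNA with AF. Named members were the 12 with most reads, those tested, and all members of hosts with at least 4. Hosts, Dbr1 and called genes of the lists were named with them. The members with shared donors, the members printed with a sequence other than Hykk, and the hosts past the unadjusted threshold were named after their values were seen. The members and lists were chosen with earlier results of these data known. Alternatives were TMM factors, junction-read totals, DESeq2, no filter, a minimum of 10 reads, all 9 libraries, members in 3 or more libraries, the 5 most abundant members left out, a pseudocount of 0.1, median scaling, the replicate number as a block, and each library left out in turn. Reads summed by donor, sums without Alb and the Alb donor with each library left out were chosen after seeing the data.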

Additional observations from a re-analysis of the deposited data

How the results depend on the processing

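No member passed an adjusted p under 0.05 in edgeR or DESeq2 under any of the alternatives run in either comparison, or with reads summed by donor. The filter decided how many could be tested: without it 195 and 204 members were tested, with 1 and 0 at an unadjusted p under 0.05, and with a minimum of 10 reads 3 and 2 members, with 2 and 1. Besides Hykk ciRNA38 these were Ep300 ciRNA171 and, in AF against PF, Alb ciRNA62, whose 10 reads each lie in 1 library, so they passed this minimum through the group where they are high. The call among host genes was 1 in AF against PF under the other settings and between 1 and 2 when a library was left out, with 2 without PF replicate 1 or 2, and 0 in AF+MNA against AF throughout.

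With members in 3 or more libraries only, which are 4 members, the difference in RPB was -54.1 in AF against PF and 64.0 in AF+MNA against AF, and the difference in share -0.19 and 0.22 percentage points. These are values with no test, since the choice of members used the same reads. The Hykk pair, 2 of the 4, alone differed by -44.1 and 22.8 RPB. With a library left out, the difference in RPB ran from -6.11 to 181 and from -217 to 24.9, and that in share from -0.20 to 0.68 and from -0.79 to 0.25. Hykk ciRNA100 had a log2 fold change of 0.34 in AF against PF, which ran from -0.21 to 3.57 when a library was left out (-0.20 without PF replicate 1, -0.21 without PF replicate 2, -0.07 without AF replicate 1). In AF+MNA against AF it was -0.24 and ran from -3.57 to 0.33 (0.20 without AF replicate 1, 0.33 and 0.24 without AF+MNA replicates 2 and 3). The cause was not tested. Without the 5 most abundant members the differences in RPB were 134 and -113, and without Alb 106 and -216.

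Same-numbered libraries did not deviate together in gene levels (correlations of -0.04 to 0.06 across gene entries). This gave no sign that the numbers pair the libraries, and circRNAs did not enter this check. With the replicate block, 0 members were called in both comparisons and 1 and 0 host genes, and the paired exact permutation p of the summed reads was 0.75 and 0.5, where 0.25 is the smallest possible, with differences of 90.2 and -106 RPB and of 0.24 and -0.28 points in share.

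The junction results rest on a total of 654 reads over 295 members and 9 libraries.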
